A study of Mus musculus with 4 samples.

Results

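Of the 53379 genes in the count table, 162 passed a threshold on raw counts in both libraries of one genotype and had 0 counts in both libraries of the other. They were chosen by their raw counts in the 4 libraries. The WT set of 129 genes had at least 20 counts in each wild-type library and 0 in both Npas3-/- libraries. The Npas3-/- set of 33 genes had at least 10 counts in each Npas3-/- library and 0 in both wild-type libraries. The counts of both genotypes chose the genes, so these counts are given as a description and support no test. What the rule did not use is the type of gene, its sequence, its place in the genome, and the counts of the genes that overlap it or resemble it.

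The study compared wild-type astrocytes (WT) with astrocytes of the genotype Npas3-/-, both of the C57BL/6 strain, with 2 samples each and no treatment named. Both came from newborn mouse cortex, were cultured in medium with fetal bovine serum, freed of loosely attached cells by shaking, and harvested at day 14 in vitro. RNA was sequenced on an Illumina NovaSeq. The labels name neither the Npas3 allele nor the animal or culture behind each sample. The p-values here measure only how far these samples spread, and that spread may be technical.

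Npas3 is a transcription factor of the bHLH-PAS family, which binds DNA as a dimer with a partner such as ARNT and is known for its part in brain development. A gene annotation holds more than messenger RNAs. It lists long noncoding RNAs, antisense transcripts that run over another gene on the other strand, models marked TEC, which await experimental proof and are often a single exon inside an intron, pseudogenes that are decayed or retroposed copies, and read-through genes whose transcripts join exons of neighbouring genes. Reads from a read-through gene or from a near-identical copy can often be placed on more than one gene, and the sources used here do not give how such reads were counted.

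The libraries held between 82965565 and 86932708 counts. Between 22902 and 23761 genes had a count in the WT libraries, and 20652 and 21337 in the Npas3-/- libraries. Npas3 itself had 5129 and 8739 counts in WT and 2055 and 1386 in Npas3-/- (edgeR, log2 fold change -1.82, SE 0.33, adjusted p = 0.0181). With an offset for transcript GC content and length the edgeR log2 fold change was -0.57 (adjusted p = 0.154) and missed the threshold. The table counts the whole gene and does not show a loss limited to some exons. Astrocyte markers, 10 of 10 tested, summed to between 3899 and 7126 CPM (counts scaled to library size with TMM factors), while 5 red blood cell markers summed to at most 0.0427 CPM. Neuron markers summed to between 171 and 312 CPM and mural cell markers to between 317 and 1395 CPM. Most of the neuron sum came from Stmn2 (mean 154 CPM in WT and 121 in Npas3-/-). Most of the mural sum came from Acta2 (mean 757 CPM in WT and 1347 in Npas3-/-), which had 110366 and 25288 counts in WT. These sums thus say little of the low genes on either list. Tested were 10 astrocyte, 8 neuron, 7 oligodendrocyte precursor, 5 oligodendrocyte, 9 microglia, 7 endothelial, 4 mural, 6 fibroblast and meningeal, 6 ependymal and 0 red blood cell markers. Over all 10 marker lists 17 genes passed the edgeR test, 12 lower and 5 higher in Npas3-/-. Of all 18838 genes tested 33.1% passed, 21.5% lower and 11.6% higher, so nothing particular to the markers is read from their number. The 12 lower markers include Tek and Lhfpl3, which are members and whose direction the rule fixed.

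The WT set was made up of low counts with a few exceptions. Its counts ran from 20 to 1788 in WT replicate 1 (median 33) and from 20 to 2040 in WT replicate 2 (median 47). The mean was under 50 for 87 of the 129 genes and at least 100 for 12. The rule took 0.779% of the 16559 genes with at least 20 counts in each WT library, and this share depended on the count: 8.78% of genes with a mean between 20 and 30, 7.45% between 30 and 50, 2.44% between 50 and 100, 0.533% between 100 and 200, 0.264% between 200 and 500, and 0.0173% of genes with 500 or more. The count of replicate 2 was the higher in 88 genes and that of replicate 1 in 37. The median ratio of the replicates was 1.66, 46 genes differed by 2-fold or more, and the largest ratio was 7.92, for Rspo2. Among all 2343 genes with at least 20 counts in each WT library and a mean under 100, called low-count genes from here on, replicate 2 was the higher in 61.0% and the median ratio was 1.47.

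The Npas3-/- set was lower still, from 10 to 136 counts in replicate 1 and from 10 to 156 in replicate 2, with a median of 20 in both. It was 0.199% of the 16586 genes with at least 10 counts in each Npas3-/- library, and 30 of the 33 had a mean under 50. Replicate 1 was the higher in 17 genes, replicate 2 in 14, and the median ratio was 1.63. A gene at 20 or more counts in one library and 0 in the other also occurred within a genotype. From WT replicate 1 to 2 it was 122 of 17227 genes (0.708%) and from WT replicate 2 to 1 261 of 17836 (1.46%). Between the Npas3-/- replicates it was 210 of 16471 (1.27%) and 180 of 16485 (1.09%). These numbers set 1 library against 1, while the rule needs both libraries of each genotype, so they are not on the same criterion as the sets.

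**Figure D1:**
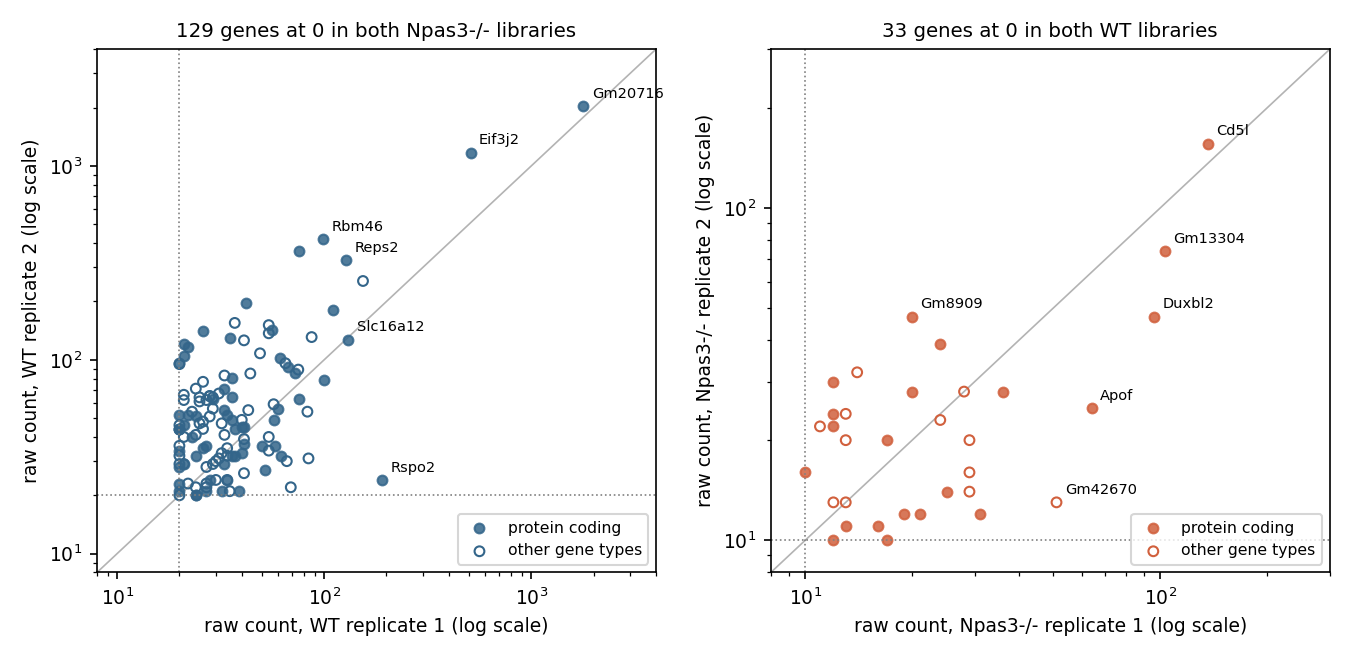
Raw counts of each gene in replicate 1 (x, log scale) and replicate 2 (y, log scale) of the genotype in which it was detected, for the WT set (left) and the Npas3-/- set (right). Filled points are protein-coding genes, dotted lines mark the thresholds of 20 and 10 counts, and the grey line marks equal counts. Most points lie just above the thresholds, and Gm20716 (1788 and 2040) and Eif3j2 (509 and 1169) stand apart.

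The counts themselves came in steps, which bears on what a threshold or a 0 means here. In every library more genes stood at a multiple of 4, or 1 above it, than at the values between. WT replicate 1 had 433 genes at 8 counts, 263 at 9, 142 at 10 and 138 at 11. Of genes with 2 to 61 counts, 60.6% to 64.5% per library stood at a multiple of 4 or 1 above, where evenly spread values would put 50% there. Of the member values in that range 168 of 251 (66.9%) did so. On this spacing 20 counts are 5 steps. The cause of the steps was not tested. Because of them, folds were set against a floor of 3 steps, 12 counts per library, which is 0.128 to 0.156 CPM, in place of 3 counts. Intervals and floors cover counting error only. On that floor WT genes were at least 1.46-fold to at least 139-fold higher in WT, and genes of the Npas3-/- set at least 1.04-fold to at least 13.9-fold higher in Npas3-/-.

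**Figure D2:**
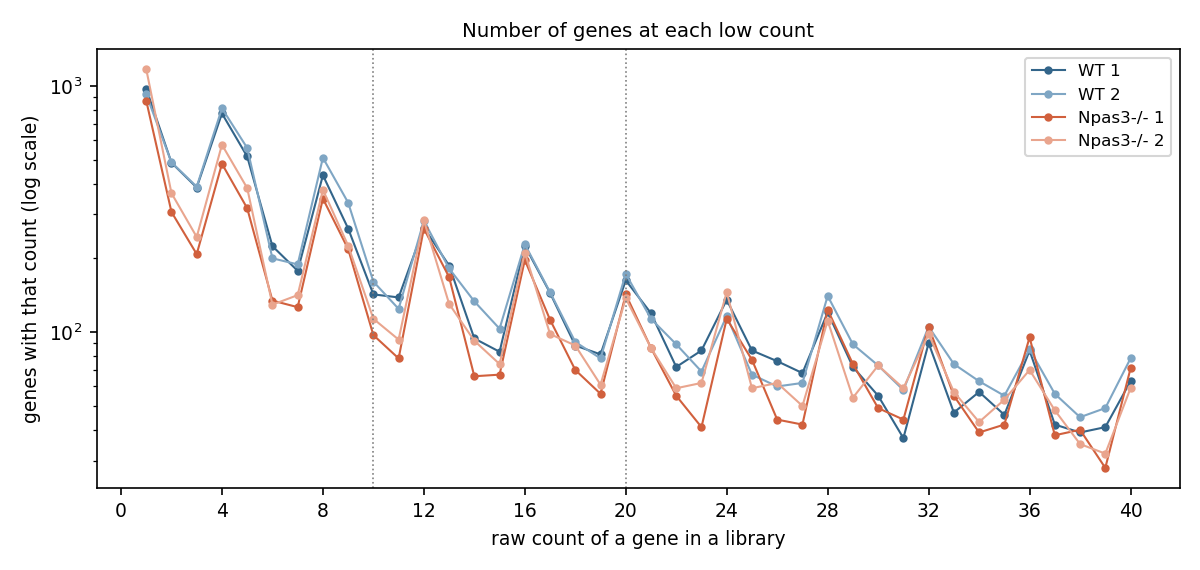
Number of genes (y, log scale) at each raw count from 1 to 40 (x) in each of the 4 libraries. Peaks at 4, 8, 12, 16 and 20 recur in all 4 libraries, and dotted lines mark the thresholds of 10 and 20 counts.

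Just inside the WT threshold stood Gm36879 (20 and 20 counts), Pcdhb15 (20 and 21) and Kcnma1 (20 and 23). Just outside stood Gm19144 (19 and 70), Lrrc39 (19 and 62) and Gm14827 (19 and 61), all at 0 in Npas3-/-. A further 200 genes were at 0 in both Npas3-/- libraries with a lower WT count of 10 to 19. Single counts in Npas3-/- kept out Akr1c19 (44 and 141 in WT), Gm26606 (20 and 152) and Gm37637 (41 and 90). There were 7 genes of this kind, and 95 with 2 to 5 counts. On the Npas3-/- side Cd209g (12 and 10), Ovol3 (10 and 16) and Gm45208 (17 and 10) stood just inside. Gm5340 (29 and 9), 4933439N14Rik (9 and 21) and 2300002M23Rik (9 and 13) stood just outside.

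Protein-coding genes with an established symbol made up 58 of the 65 coding genes of the WT set. The groups below were drawn up after the members were known. Eif3j2, a copy of the gene for the J subunit of translation initiation factor 3, was the highest of them with 509 and 1169 counts (9.11 ± 4.78 CPM, SD, n = 2), at least 60.6-fold above Npas3-/-. It is taken up again with its near-identical copy. Rbm46, an RNA-binding protein gene of germ cells, had 99 and 419 counts, and Terb1, a gene of meiotic telomere attachment, had 34 and 52. With the sperm thioredoxin gene Txndc2 (22 and 52) and Rnf151 (24 and 20) the germ cell genes numbered 4.

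Among genes of membrane traffic, Reps2, which encodes an endocytic EH-domain protein, had 128 and 326 counts, Rab9b 72 and 85, and Rab39 20 and 44. All 3 were higher in WT replicate 2. Kbtbd8, an adaptor of the CUL3 ubiquitin ligase, had 76 and 366 counts and Nrk, a protein kinase gene, 26 and 141. The replicates of Kbtbd8 and Nrk lay much further apart than those of Rab9b.

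Secreted ligands and modulators of signalling numbered 4. Rspo2, which encodes an R-spondin that strengthens Wnt signalling, had 190 counts in WT replicate 1 and 24 in replicate 2. Dkk2, which encodes a Dickkopf modulator of the Wnt coreceptor, had 100 and 79. Bmp5 had 40 and 33 counts and the prolactin family gene Prl7a1 21 and 105. Rspo2 was thus uneven between replicates, while Dkk2 and Bmp5 were close.

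The ion channel group held 6 genes of 20 to 64 counts, all higher in WT replicate 2: the sodium channel Scn3a (20 and 44), the potassium channels Kcna3 (21 and 46) and Kcnma1 (20 and 23), the potassium channel regulator Kcnip4 (29 and 63), Trpv3 (23 and 40) and the chloride channel Cftr (36 and 64). Transporters also numbered 6. Slc16a12, which carries creatine, had 131 and 127 counts (1.42 ± 0.0838 CPM) and was among the most even genes of the set. Slc4a10, a sodium bicarbonate transporter of brain, had 67 and 92 counts, and the lipid transporter Abca12 had 56 and 143. Abca6 (20 and 96), Slc7a14 (28 and 24) and Slc24a1 (20 and 28) completed the group.

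Receptors in the WT set were Gabrg1, a GABA-A receptor subunit (61 and 102 counts), the kappa opioid receptor Oprk1 (57 and 49) and the angiopoietin receptor Tek (36 and 49). Tek was the only gene of the set on the endothelial marker list, whose 10 genes summed to 18.04 and 16.02 CPM in WT and 22.4 and 16.8 in Npas3-/-. Lhfpl3, on the list of oligodendrocyte precursors, had 58 and 36 counts, while that list summed to 1389 and 1278 CPM in WT and 1458 and 1790 in Npas3-/-. Most of the precursor sum came from Olig1 (mean 1046 CPM in WT and 1280 in Npas3-/-) and Olig2 (216 and 231). Sox10, Gpr17 and Neu4 of that list had at most 8 counts in any library. Neither list as a whole was at 0 where its member was, but the precursor sum says little of its low genes.

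Of genes known from innate immunity and protease control, Serpinb2, an inhibitor of plasminogen activators, had 110 and 180 counts. The cytosolic DNA sensor Aim2 had 35 and 130 counts, Gimap8 24 and 51, and Naip6, from a family of inflammasome sensors of bacterial proteins, 24 and 20. Transcription factor genes were Zkscan16, a zinc finger gene (42 and 196), Foxr2 (20 and 52) and Hsf5 (36 and 32). Adhesion genes were Pcdh11x (20 and 34), Pcdhb15 (20 and 21) and Slitrk3 (37 and 32). The 44 genes of the WT set placed in such groups thus came from 12 groups of 2 to 6 genes.

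The Npas3-/- set held 21 coding genes, and its highest was Cd5l. This gene, which encodes a scavenger receptor protein secreted by macrophages, had 136 and 156 counts in Npas3-/- and 0 in both WT libraries (1.83 ± 0.272 CPM, at least 13.9-fold higher). The microglia marker list, 9 of 10 tested, summed to 47.2 and 49.0 CPM in WT and 69.9 and 71.4 in Npas3-/-, and the median log2 fold change of the tested genes was 0.90. Without the GC and length offset none of the 9 passed by edgeR (2 at an unadjusted p below 0.05) or DESeq2. With the offset edgeR called 1 of them higher in Npas3-/- and 0 lower, and the median log2 fold change was 1.30. C1qa had 32 and 0 counts in WT and 164 and 93 in Npas3-/- and Trem2 had 4 and 5 against 51 and 20, while P2ry12 had 34 and 71 against 16 and 4. Ptprc was at 0 in both WT libraries and had 8 and 0 counts in Npas3-/-. The part of such cells in the Cd5l counts was not tested.

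Other genes of the Npas3-/- set known as secreted plasma proteins were Apof, an apolipoprotein (64 and 25 counts), Kng1, the kininogen gene (31 and 12), and Saa4, a constitutive serum amyloid A (17 and 20). Cyp1a1, a monooxygenase and classical target of the aryl hydrocarbon receptor, which is itself a bHLH-PAS protein, had 24 and 39 counts. The steroid 21-hydroxylase gene Cyp21a1 had 12 and 22. Regulators of transcription were the double homeobox gene Duxbl2 (96 and 47), the corepressor Skor1 (12 and 30), the retinal homeobox gene Rax (12 and 24) and the zinc finger gene Ovol3 (10 and 16). The highest of these, Duxbl2, has a near-identical copy.

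The rest of the coding genes ranged from 10 to 103 counts. They were Gm13304 (103 and 74), Gm8909 (20 and 47), Spata20 (36 and 28), the hair keratin Krt83 (20 and 28), Gm5936 (25 and 14), 1700001C02Rik (21 and 12), the sperm acrosome gene Spaca3 (19 and 12), the protease inhibitor Wfdc12 (16 and 11), Gm45208 (17 and 10), the chemokine Ccl21b (13 and 11) and the lectin receptor Cd209g (12 and 10). The noncoding ones were Gm42670 (51 and 13), Gm37446 (29 and 20), Gm42567 (13 and 20), Gm15199 (13 and 13), Gm39302 (28 and 28), Gm26867 (14 and 32), Gm45833 (29 and 16), Gm28592 (29 and 14), Gm26663 (12 and 13), Gm28373 (13 and 24) and the pseudogene Gm13015 (11 and 22). ENSMUSG00000086465.1, which the annotation used here does not list, had 24 and 23 counts. Gm15199, Gm26663, Ccl21b and Cd209g stood at 10 to 13 counts in both libraries, about 3 steps of 4.

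By gene type, the WT set of 128 annotated genes held 65 coding genes (50.8%), 17 antisense genes, 16 TEC models, 10 lincRNAs, 8 pseudogenes, 6 processed transcripts, 3 RNAs from bidirectional promoters and 3 sense intronic RNAs. Of all genes with at least 20 counts in each WT library 85.3% were coding, but of the low-count genes only 50.3%. TEC models were 12.5% of the set against 6.20% of low-count genes, antisense genes 13.3% against 12.4%, and pseudogenes 6.25% against 13.8%. So the coding share was that of genes at such counts, and TEC models were the type with the larger share in the set. The Npas3-/- set had 65.6% coding genes, against 84.9% of genes with at least 10 counts in each Npas3-/- library and 55.9% of the low-count ones among them. It held 5 lincRNAs, 4 antisense genes and no TEC model.

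The highest noncoding genes of the WT set were Gm47484 (154 and 255 counts), from a bidirectional promoter, the antisense gene Gm38155 (87 and 131), the pseudogene Slfn10-ps (54 and 151), the TEC model Gm45854 (37 and 155) and the lincRNA 1110015O18Rik (54 and 137). Rmst, a lincRNA of neural progenitors, had 83 and 54. In 2 lincRNAs the exons hold a whole microRNA gene. Mir155hg, the host transcript of miR-155, a microRNA known from immune activation, had 49 and 108 counts, and A430106G13Rik, which holds the miR-181b-1 gene and overlaps that of miR-181a-1 by 11 bases, had 29 and 64. The mature 5p sequences that lie within these genes, from RefSeq (GRCm38.p6), are shown to identify the microRNAs. The seed, bases 2 to 8, is in capitals.
miR-155-5p: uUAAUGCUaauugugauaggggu
miR-181b-5p: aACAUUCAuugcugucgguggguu
They lie at chr16:84714143-84714165 and chr1:137966650-137966673, both on the plus strand. The table counts the host genes, and mature microRNAs were not measured.

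Exons of 44 genes in the WT set (34.4%) shared at least 1 base with an exon of another gene, against 36.9% of all genes with at least 20 counts in each WT library and 36.7% of low-count genes. The overlap was on the opposite strand for 34 and on the same strand for 13. In the Npas3-/- set it was 12 genes (37.5%), 10 on the opposite and 2 on the same strand. Exonic overlap as such was therefore as common among the members as elsewhere. What differed more was the place of whole genes: 39 of the WT set (30.5%) lay inside the body of another gene, against 8.33% of all and 22.3% of low-count genes. In 20 cases the member was on the strand of the gene around it and in 19 on the opposite strand. In the Npas3-/- set 5 genes (15.6%) lay inside another, against 16.9% of low-count genes. No test was made of these shares.

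Genes that share at least 50% of their exonic bases with others numbered 6 in the WT set (4.69%, against 5.26% of low-count genes) and 4 in the Npas3-/- set (12.5%, against 4.91%). The largest count of all members was of this kind. Gm20716 (ENSMUSG00000093752.1, mm10 chromosome 2, 168180986 to 168230364, minus strand) is a read-through model with 1788 and 2040 counts in WT (20.97 ± 1.17 CPM) and 0 and 0 in Npas3-/-, at least 139-fold lower. All of its exonic bases lie in exons of neighbouring genes on its strand, 83.1% in Adnp and 16.9% in Dpm1. Adnp, a chromatin-associated homeobox gene, had 12008 and 17419 counts in WT and 5104 and 3518 in Npas3-/- (log2 fold change -1.58, SE 0.27). Dpm1, a subunit of the dolichol phosphate mannose synthase, had 946 and 990 in WT and 1529 and 1264 in Npas3-/- (edgeR, log2 fold change 0.72, SE 0.26, adjusted p = 0.0809). With the GC and length offset the edgeR log2 fold change of Adnp was -0.69 (adjusted p = 0.0763) and that of Dpm1 2.47 (adjusted p = 0.0246). Gm20716 thus had more counts than Dpm1 in both WT libraries and 0 in Npas3-/-, where Dpm1 and Adnp had 1264 or more.

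Gm49321 (21 and 120 counts in WT) is built the same way from exons of Hif1a (33.3%), the oxygen-regulated transcription factor, and of Snapc1 (66.7%), a subunit of the snRNA promoter complex. Hif1a had 3773 and 9263 counts in WT and 985 and 604 in Npas3-/-, and Snapc1 2136 and 3418 against 479 and 431. Gm28551 (60 and 56) shares 63.5% of its exonic bases with Asnsd1, which had 2956 and 3263 counts in WT and 610 and 553 in Npas3-/-, and 14.3% with the pseudogene Gm18800, which had 10 and 7 against 0 and 0. In the Npas3-/- set Gm45208 (17 and 10) is built from Praf2 (37.0%) and Wdr45 (63.0%), an autophagy gene. Praf2 had 5980 and 5966 counts in WT and 8742 and 7152 in Npas3-/-, and Wdr45 had 1578 and 2358 against 2931 and 4001. By edgeR Hif1a (log2 fold change -2.84, adjusted p = 0.0169), Snapc1 (-2.41, adjusted p = 0.0130) and Asnsd1 (-2.23, adjusted p = 0.0130) fell, and Praf2 (0.60, adjusted p = 0.0601) and Wdr45 (1.02, adjusted p = 0.0532) did not pass. With the offset none of these 5 passed by edgeR, at log2 fold changes of -0.52, -0.04, -0.86, -0.08 and 0.42 in the same order.

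**Figure D3:**
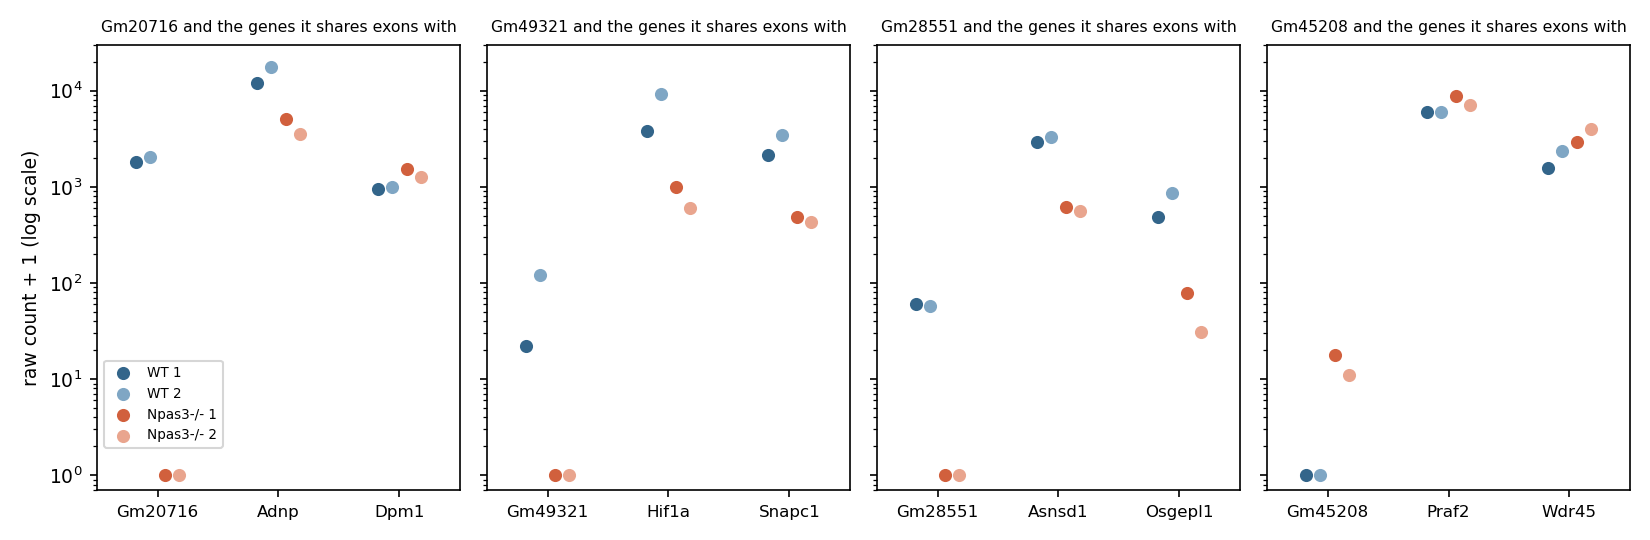
Raw count plus 1 (y, log scale) in each library of 4 members and of genes with which they share exons. Gm20716, Gm49321 and Gm28551 stand at 0 in both Npas3-/- libraries and Gm45208 at 0 in both WT libraries, while the genes plotted beside them have 30 counts or more in every library.

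Models that lie wholly in exons of other genes also switched between libraries of one genotype. This check and its limits were chosen after the counts were seen. The annotation has 773 genes with at least 99% of their exonic bases inside exons of other genes on the same strand, and 3 are members: Gm20716, Gm49321 and Gm45208. Of the 59 with at least 100 counts in a library, 12 (20.3%) had 100 or more counts in one replicate and 3 or fewer in the other of the same genotype, against 47 of 15062 other genes (0.312%). Gm20390 had 1142 and 0 counts in WT and 0 and 0 in Npas3-/-. Gm21983 had 634 and 0 in WT and 0 and 1186 in Npas3-/-, and Gm20458 had 141 and 0 in WT and 0 and 1150 in Npas3-/-. A 0 in one replicate beside 1142 or 1186 counts in the other thus occurred within a genotype for such models. How reads in shared exons were assigned was not tested.

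The members with 50% or more of their exonic bases on the opposite strand of another gene were 3 in the WT set: Gm47484 with Ptgr2 (58.8%), Gm15491 (26 and 77 counts) with Mgea5 (73.4%) and A730015C16Rik (27 and 21) with Kti12 (68.4%). Ptgr2 had 11245 and 15329 counts in WT and 3065 and 5707 in Npas3-/-, and Mgea5, the gene of the enzyme that removes O-GlcNAc, 14203 and 16331 against 3815 and 3338. Kti12 had 1735 and 1857 counts against 2305 and 2425 and did not pass (edgeR, log2 fold change 0.59, adjusted p = 0.0957). In the Npas3-/- set Gm28592 lies over Phlda1 (98.1%), which had 3746 and 2609 counts in WT and 5200 and 5815 in Npas3-/-, and Gm42670 over Tmem33 (54.02%), which had 4588 and 6711 against 2687 and 1885. Tmem33 changed direction with the GC and length offset, from an edgeR log2 fold change of -1.12 (adjusted p = 0.0336) to 1.503 (adjusted p = 0.0443). Ptgr2, Kti12, Mgea5 and Phlda1 did not pass with the offset, at log2 fold changes of 0.24, -0.23, -0.65 and 0.14. Without it edgeR called Ptgr2 (-1.39), Mgea5 (-1.90) and Phlda1 (0.98). Gm37446 lies over Pcdhb12 (46.6%, and 21.1% over Gm20162), which had 0 and 7 counts in WT and 29 and 28 in Npas3-/-. Whether the libraries kept strand is not given in the sources used here, so reads of these genes and of their opposite-strand partners cannot be told apart.

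The counts of overlapping genes were not used by the rule and could be read from the fit over all genes. Among all 18838 genes tested, 33.1% passed at an adjusted p below 0.05 (edgeR), 21.5% lower and 11.6% higher in Npas3-/-, and the median log2 fold change was -0.07. The 62 partners of the WT set that share exonic bases and are not members included 35 tested genes, of which 14 fell, 1 rose and 20 did not pass, and their median log2 fold change was -0.77. Of the 18 partners of the Npas3-/- set 9 were tested, 3 fell and 2 rose, with a median of 0.60. With the offset for GC content and length 579 of all genes fell and 1076 rose, so the split between directions turned. Of the partners of the WT set 1 fell and 2 rose in that fit (median -0.17), and of those of the Npas3-/- set 1 rose (median 0.14). The number of partner calls varied with the libraries used. Leaving 1 library out leaves 1 sample in a genotype, and calls over all genes fell in each such fit too. With all libraries edgeR called 20 of 44 tested partners and DESeq2 27. Left without WT replicate 2, edgeR called 10, and without Npas3-/- replicate 1 it called 13. With Npas3-/- replicate 2 left out it called 0 (17 at an unadjusted p below 0.05), where it also called 0 of all genes (5728 at an unadjusted p below 0.05).

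Genes with a WT-set member inside their body gave a like picture. Of 39 such host genes 34 were tested, 12 fell and 2 rose, the median log2 fold change was -1.06, and with the offset 3 fell and 6 rose (median 0.16). The actin-capping gene Capza1, with the sense intronic Gm42659 (20 and 32 counts) inside it, fell from 9072 and 11938 to 1045 and 739 counts (log2 fold change -3.37, SE 0.26). The ephrin gene Efnb2, around the TEC model E230020D15Rik (65 and 96), fell from 17381 and 15151 to 4547 and 3308. Brk1, a subunit of the WAVE complex, holds Gm44199 (28 and 65) and Gm44200 (20 and 29). It rose from 11568 and 10206 to 19447 and 22286 counts, and Mrps6, around Gm16310 (41 and 39), rose from 38328 and 31049 to 72001 and 73749. With the offset Capza1, Efnb2 and Brk1 passed again in the same direction, and Mrps6 had an edgeR log2 fold change of 0.54 (adjusted p = 0.113). Members at 0 in Npas3-/- thus lay inside hosts that fell and inside hosts that rose. These hosts were named after their values were seen.

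Near-identical copies, another gene that matched at 95% identity or more over at least 50% of the longest transcript, were present for 6 genes of the WT set (4.69%, against 14.6% of low-count genes) and for 8 of the Npas3-/- set (25%, against 16.3% of low-count genes with at least 10 counts in each Npas3-/- library). For such genes the total over the member and its copies is given beside the single row. The total includes the member, whose direction the rule fixed, and only copies that are not members are free of it. The copies that are not members numbered 61, of which 9 were tested. Eif3j1 and Glcci1 fell, and none rose by edgeR. At an unadjusted p below 0.05 edgeR gave 3, and DESeq2 called 3, of which 1 rose. Without Npas3-/- replicate 1 edgeR called 4 copies, 2 in each direction, and without Npas3-/- replicate 2 it called 0 (4 at an unadjusted p below 0.05).

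Eif3j2 matches Eif3j1 at 99.4% identity over its whole transcript. Eif3j1 had 2639 and 5737 counts in WT and 747 and 458 in Npas3-/- (edgeR, log2 fold change -2.60, SE 0.45, adjusted p = 0.0170, and with the offset -0.38, adjusted p = 0.266). Both together had 3148 and 6906 counts in WT and 747 and 458 in Npas3-/-. Eif3j2 thus had none of the family's counts in either Npas3-/- library, in which its copy was still counted.

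Gm5815 is a processed pseudogene of Glcci1, a glucocorticoid-induced gene, on another chromosome. It had 22 and 23 counts in WT, where Glcci1 had 792 and 1133, and 0 and 0 in Npas3-/-, where Glcci1 had 109 and 89 (edgeR, log2 fold change -3.09, SE 0.37, adjusted p = 0.0130, and with the offset -1.65, adjusted p = 0.0325). A stretch of 120 bases from each is shown here to let the genes be compared. Bases that differ are in capitals.
Gm5815: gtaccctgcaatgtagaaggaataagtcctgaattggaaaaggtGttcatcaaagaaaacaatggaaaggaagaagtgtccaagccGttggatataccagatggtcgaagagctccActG
Glcci1: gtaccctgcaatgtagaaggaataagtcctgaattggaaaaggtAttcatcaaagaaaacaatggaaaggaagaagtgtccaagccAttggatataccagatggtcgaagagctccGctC
The windows are at chr17:58594082-58594201, plus strand, and at chr6:8579656-8582615, plus strand, the latter across an intron. Over 1227 aligned bases the genes differ at 13.

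Naip6 and Naip5 are neighbours on chromosome 13. Naip6 had 24 and 20 counts in WT and 0 in Npas3-/-, and Naip5 had 16 and 63 in WT and 7 and 0 in Npas3-/-, so both stood low together. Their transcripts differ at 136 of 4398 aligned bases, and the window shown, at chr13:100316426-100316545, minus strand, and chr13:100246074-100246193, minus strand, holds 11 of them, in capitals.
Naip6: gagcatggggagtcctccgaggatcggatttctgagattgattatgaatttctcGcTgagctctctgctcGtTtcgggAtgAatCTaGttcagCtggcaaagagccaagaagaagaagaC
Naip5: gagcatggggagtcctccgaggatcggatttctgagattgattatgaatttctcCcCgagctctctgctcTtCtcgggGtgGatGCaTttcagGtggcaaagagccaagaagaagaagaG
Of the pairs shown here this one differs at the most bases.

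Gm2237, one of a large family on chromosome 14, had 33 and 55 counts in WT. The table lists 37 copies of it, 9 of them with a count, and the family summed to 145 and 228 in WT and to 0 and 25 in Npas3-/-, all 25 in Gm3636. 4921528I07Rik (66 and 30) has the copy Gm29825, and together they had 98 and 58 counts in WT and 0 and 20 in Npas3-/-. 2810047C21Rik1 (27 and 22) and its copies had 36 and 27 counts in WT and 2 and 0 in Npas3-/-. By the rule a member of the WT set adds counts only in WT, so the totals lean that way from the start. The copies without the member were also lower in both Npas3-/- libraries than in both WT libraries, in every family of the WT set. For 6 of 6 families the copies had a count in at least 1 Npas3-/- library.

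The chemokine gene Ccl21b, a ligand of CCR7 in lymphoid tissue, belongs to a group of genes on chromosome 4 that share its coding sequence. Its coding window at chr4:42255929-42256142, plus strand, differs from that of Ccl21a at chr4:42773543-42773756, minus strand, at 2 of 120 bases, in capitals, and these are the 2 differences over all 402 aligned bases.
Ccl21b: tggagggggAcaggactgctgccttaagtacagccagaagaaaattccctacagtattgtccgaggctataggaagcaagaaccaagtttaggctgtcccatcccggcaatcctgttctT
Ccl21a: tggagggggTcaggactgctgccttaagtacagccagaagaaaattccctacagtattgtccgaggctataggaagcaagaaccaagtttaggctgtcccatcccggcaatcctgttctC
Ccl21b had 13 and 11 counts in Npas3-/-, and Gm13304, which is identical over those 402 bases and is itself a member, 103 and 74. Gm10591 had 0 and 28 counts in WT and 43 and 40 in Npas3-/-, and Ccl21a 0 and 10 in Npas3-/-. The family of Ccl21b summed to 2 and 32 in WT and to 174 and 141 in Npas3-/-, so the group was present in WT, where both members stood at 0. The totals in Npas3-/- include the counts of both members, which the rule chose.

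Gm5936 and Gm5640 lie on chromosome X. Gm5936 had 25 and 14 counts in Npas3-/- and 0 in WT, and Gm5640, at 99.4% identity, had 10 and 9 in WT and 0 in Npas3-/-. The raw counts of the pair thus went opposite ways, with the direction of Gm5936 fixed by the rule. Those of Gm5640 lay below the floor used for folds in every library. Gm5640 was not tested, so no difference between genotypes is read from it. With 3 further copies that had a count the family summed to 18 and 14 counts in WT and 27 and 27 in Npas3-/-. Without Gm5936 the copies had 18 and 14 in WT and 2 and 13 in Npas3-/-. The windows shown, at chrX:74841335-74841454, plus strand, and chrX:74641020-74641139, minus strand, differ at 3 of 120 bases, in capitals, and the genes at 13 of 2861 aligned positions beside 4 gaps.
Gm5936: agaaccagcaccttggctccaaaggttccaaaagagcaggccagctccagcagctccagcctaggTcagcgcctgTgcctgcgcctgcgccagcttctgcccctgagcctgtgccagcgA
Gm5640: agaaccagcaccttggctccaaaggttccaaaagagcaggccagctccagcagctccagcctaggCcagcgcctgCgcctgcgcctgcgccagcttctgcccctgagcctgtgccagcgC

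Gm13015 is a single-exon pseudogene of Polr2l, which encodes a small subunit shared by the RNA polymerases. It had 11 and 22 counts in Npas3-/- and 0 in WT, beside 5422 and 10252 counts of Polr2l in Npas3-/- and 5948 and 3096 in WT (edgeR, log2 fold change 0.99, adjusted p = 0.154). The windows, at chr4:117148923-117149042, plus strand, and chr7:141473380-141475122, minus strand, across introns, differ at 4 of 120 bases.
Gm13015: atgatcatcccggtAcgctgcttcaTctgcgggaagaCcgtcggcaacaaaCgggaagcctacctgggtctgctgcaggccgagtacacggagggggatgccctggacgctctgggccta
Polr2l: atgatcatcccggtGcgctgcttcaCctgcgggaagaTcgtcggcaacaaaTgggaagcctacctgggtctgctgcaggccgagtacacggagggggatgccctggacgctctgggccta
Capitals mark the bases that differ. The counts of Gm13015 were a small share of those of the gene it copies.

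Duxbl2 (96 and 47 counts in Npas3-/-) has 2 copies. Duxbl3, identical over the whole transcript, was at 0 in every library, and Duxbl1 had 21 and 0 counts in WT and 110 and 55 in Npas3-/-. The transcripts of Duxbl2 and Duxbl1 differ at 1 base and 10 gap positions of 2266, and the family summed to 21 and 0 in WT and 206 and 102 in Npas3-/-. Gm26867 has the copy Gm26525, which had 76 counts in Npas3-/- replicate 2 and 0 in the other 3 libraries. Cyp21a1 and Krt83 have a copy each, Cyp21a2-ps and Krt81, at 0 counts in every library. Of the 8 members of the Npas3-/- set with a copy, 3 (Gm26867, Cyp21a1 and Krt83) had a family total of 0 in both WT libraries.

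**Figure D4:**
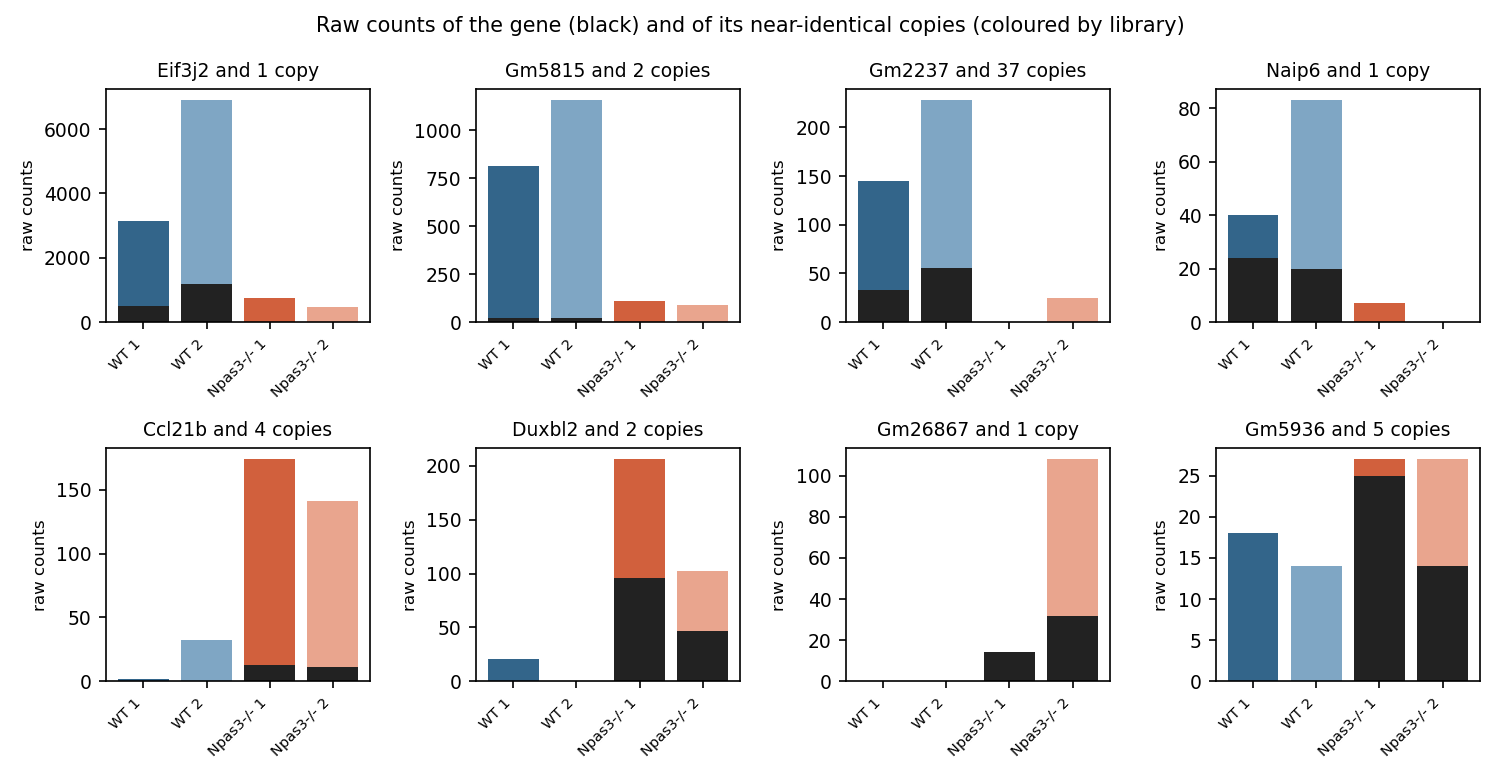
Raw counts (y) of 8 members (black) and of all their near-identical copies (coloured, stacked on top) in each library, each panel with its own scale. The copies of Eif3j2, Gm5815, Gm2237 and Naip6 are lower in both Npas3-/- libraries than in both WT libraries. Those of Gm5936 are 18 and 14 in WT against 2 and 13 in Npas3-/-, or 27 and 27 there with the member.

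The members differed from other genes in base composition. The longest transcript had a median GC content of 44.0% in the WT set, against 50.2% of all genes with at least 20 counts in each WT library and 50.1% of the low-count ones. In the Npas3-/- set it was 54.5%, against 50.7% and 49.9%. Among low-count genes of WT, those at 0 in Npas3-/- were 11 of 59 (18.6%) under 38% GC, 34 of 201 (16.9%) from 38% to 42%, 29 of 367 (7.90%) from 42% to 46%, 27 of 528 (5.11%) from 46% to 50%, 10 of 506 (1.98%) from 50% to 54%, 3 of 413 (0.726%) from 54% to 58%, and 2 of 264 (0.758%) above. In the Npas3-/- set the order was turned, from 0 of 76 under 38% to 7 of 331 (2.11%) at 58% and over. The gradient was present in both classes: coding members of the WT set among low-count genes had a median of 44.2% against 51.9% of coding low-count genes, and the other gene types 43.9% against 48.6%.

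The libraries differed along the same axis. Weighted by counts, the GC content of transcripts was 51.5% in WT replicate 1, 50.2% in WT replicate 2, and 53.2% and 53.6% in the Npas3-/- replicates. WT replicate 2, with the lowest value, had the higher count in most genes of the WT set, as given above. GC content and genotype cannot be told apart over 4 libraries, since the libraries of the genotypes do not overlap in it.

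**Figure D5:**
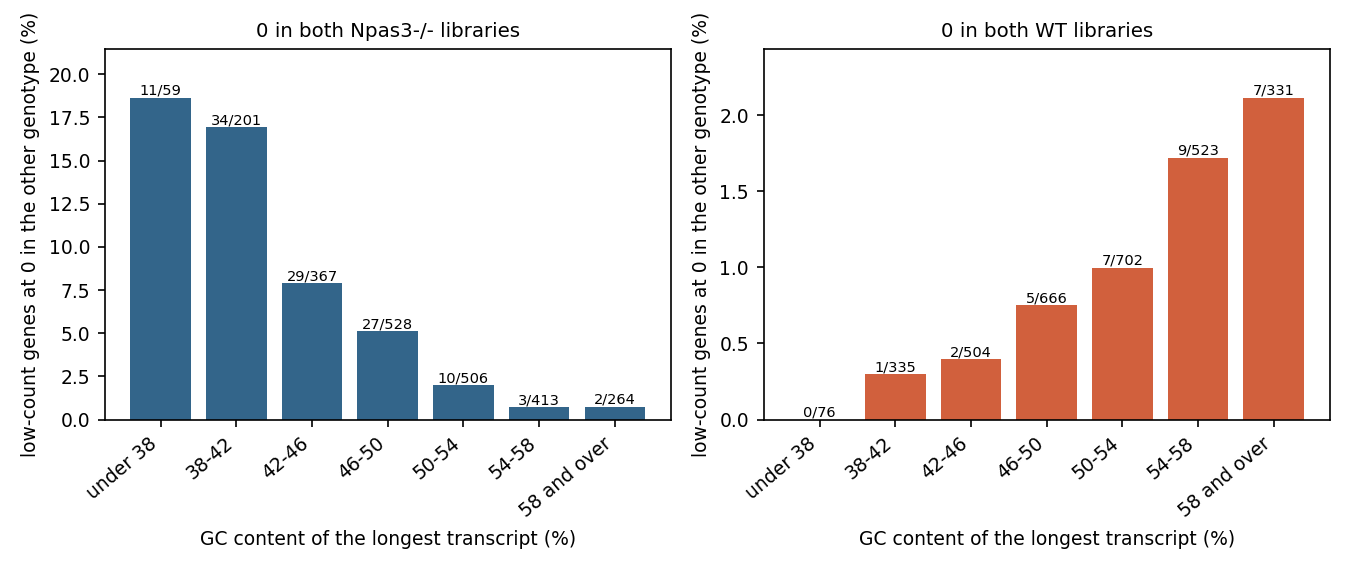
Share of low-count genes (y, percent) that stood at 0 in both libraries of the other genotype, by GC content of the longest transcript (x, percent), with the number of members over the number of genes above each bar. The share for the WT set (left) goes from 18.6% under 38% GC to 0.758% at 58% and over, and that for the Npas3-/- set (right) from 0% to 2.11%.

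In the fit over all genes the 129 genes of the WT set were tested and 129 were called lower, beside 21.5% of all genes, and of the Npas3-/- set 30 were tested and 29 called higher, beside 11.6%. Ccl21b missed the threshold, and Gm45208, Ovol3 and Cd209g did not pass the filter. The rule used this contrast, so nothing is read from these calls. With the offset for GC content and length 23 of 128 of the WT set were called lower and 6 of 29 of the Npas3-/- set higher. Of all 18817 genes in that fit 579 were called lower and 1076 higher. The rule fixed the direction of the members there too, so nothing is read from these calls either. Called in the WT set were, among others, Gm20716, Eif3j2, Rbm46, Reps2, Kbtbd8, Serpinb2, Slc16a12, Dkk2, Nefh and Mir155hg. Those called in the Npas3-/- set were Cd5l, Gm13304, Duxbl2, Cyp1a1, Gm39302 and Gm37446. Rspo2, Aim2, Gabrg1, Tek and Lhfpl3 were not called (edgeR, adjusted p between 0.0520 and 0.0803). The offset moved the median log2 fold change of all genes from -0.07 to 0.09, and it would also remove a true difference that follows GC content.

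The members lay on many chromosomes, in uneven shares that were not tested. The WT set had most genes on chromosome 3 (12, 9.38%, against 4.99% of genes with at least 20 counts in each WT library). The Npas3-/- set had most on chromosome 4 (5, 15.6%, against 6.34% of genes with at least 10 counts in each Npas3-/- library). Ccl21b and its copy Gm13304 are among the latter. The WT set had 8 genes on chromosome X (6.25%, against 3.35% of all genes with at least 20 counts in each WT library) and 3 on chromosome 12, which carries Npas3, and the Npas3-/- set had 2 and 1. Within 20 Mb of Npas3 lay 1 gene of the WT set and 0 of the Npas3-/- set, among 150 genes with at least 20 counts in each WT library. By symbol, 50 of the WT set were Gm models and 13 Rik clones, and 15 and 1 of the Npas3-/- set. Neither set held an olfactory or vomeronasal receptor, a Zfp gene, a small nucleolar RNA gene or a ribosomal protein gene by name.

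Promoters, from 250 bases before to 50 after the start, were found in the RefSeq table (GRCm38.p6) for 67 genes of the WT set and 14 of the Npas3-/- set. The letters ACGTG, the core of the sites bound by bHLH-PAS dimers with ARNT, stood on either strand in 19 of 67 (28.4%) and in 1 of 14 (7.14%), against 19.7% of all 27025 promoters and 24.9% of those of genes with at least 20 counts in each WT library. TATAAA, on either strand, stood in 7 of 67 (10.4%) and 3 of 14 (21.4%), against 14.2% of all promoters and 6.94% of those of the detected genes. A match is a description of the letters in this window and not a site.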

How the data were processed

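The submitters' processing notes name mm10 as the build, with HISAT2 2.1.0, Trimmomatic 0.3.8 and featureCounts. The authors deposited raw gene counts of all 4 samples in 1 table. Not given in the sources used here are the release of the annotation, the strandedness and the treatment of reads that fit several genes, and each can change the counts of overlapping genes and copies. Total counts were 82965565 and 85688472 in WT and 86932708 and 85897778 in Npas3-/-.

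Columns were matched to samples by name. Gene types, exons and transcripts came from GENCODE vM21 (mm10), which has 53274 of the 53379 identifiers and 160 of the 162 members. Exon overlap was computed with bedtools 2.31.1. Copies were found with blastn 2.17.0 (95% identity over at least 50% of the longest transcript of the gene, not an overlapping gene).

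All genes were tested in R 4.3.3 by the quasi-likelihood test of edgeR 4.0.16 with TMM, filterByExpr at a minimum count of 10, and Benjamini-Hochberg adjustment at 0.05. It was tested on simulated data. The simulated counts had no GC effect and no steps, so they do not show how the test behaves with either. Values in CPM use TMM-scaled library sizes, with the SD over n = 2. Each SE was obtained by dividing the size of the log2 fold change by the root of its F value. The offset fits, per library, natural splines with 6 degrees of freedom in GC content and log2 length. DESeq2 1.42.0 was an alternative.

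The members and lists were chosen with earlier results of these data known. Named were all of the Npas3-/- set, the highest of the WT set overall and among coding genes with an established symbol, those with 50% or more of their exonic bases shared, those with a copy, those beside the thresholds, and the main partners. Other genes named, the comparison with low-count genes, the groups by function, the floor and the crossed block were chosen after the data were seen. Single values of 1 gene of the WT set are not reported here.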

Additional observations from a re-analysis of the deposited data

How the results depend on the processing

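Genes changed between genotypes numbered 6232 by edgeR, 3997 without the filter, 1655 with the GC and length offset (579 lower, 1076 higher) and 0 to 5832 when 1 library was left out (without WT replicate 2 it was 2991, without Npas3-/- replicate 1 it was 2425, and without Npas3-/- replicate 2 edgeR gave 0, with 5728 at an unadjusted p below 0.05). With the replicate number as a block they were 2560 (2246 lower, 314 higher), and partners of the members called went from 20 to 11. The labels state no pairing, and deviations of same-numbered samples correlated at -0.16 across genes. A crossed block, added after seeing the data, gave 7670. DESeq2 gave 8372. Partners called were 4 with the offset and 0 to 19 with 1 library left out. Copies called were 2, 1 with the offset and 0 to 4 with 1 left out. Genes called on the cell type lists were 17, 10 with the offset and 0 to 22 with 1 left out. The cause of these differences was not tested.

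The number of genes seen in one genotype only was 162. It was 362 at 10 or more counts in both directions, 24 at 50 or more, and 321 to 596 without 1 library (596 without WT replicate 1, 321 without WT replicate 2, and 475 and 464 without Npas3-/- replicates 1 and 2). Members that overlap another gene were 56 by exons, 99 by gene bodies, 15 on the same strand and 10 at 50% of exonic bases. Members with a copy were 14, 9 at 98% identity and 37 at 95% identity over 100 bases. Depth was not varied. In the WT set 87 of 129 and in the Npas3-/- set 30 of 33 had a mean under 50 counts, so that a 0 stands beside few counts there.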
